A study of Mus musculus with 8 samples.

Results

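Cholesterol and fatty acid synthesis was examined through 30 genes, taken by symbol from the 20943 in a mouse tumor expression table: 18 enzymes of sterol synthesis, 5 regulators built around the SREBP transcription factors, 6 enzymes of fatty acid synthesis and the sterol carrier Stard4. All 30 were found, and none was left out by a filter on low values. The study asked how loss of Polycomb repressive complex 2 (PRC2, the enzyme complex that methylates histone H3 at lysine 27) affects malignant peripheral nerve sheath tumors (MPNST), cancers of the nerve sheath. RNA sequencing was done on 8 tumors. The 5 PRC2 wildtype tumors came from mice with Plp-CreERT and the floxed alleles Nf1(f/f) and Cdkn2a(f/f), and are labelled Nf1(-/-) and Cdkn2a(-/-). The 3 PRC2 loss tumors came from mice that carried these and also Eed(f/f), and are labelled Eed(-/-) as well; Eed encodes a core PRC2 subunit. Every mouse had 0.4 mg tamoxifen on days 0 to 3 after birth, so both groups lack Nf1 and Cdkn2a in the recombined cells, and no group without those deletions was analysed here. Plp-CreERT is a tamoxifen-activated recombinase expressed from the Plp promoter in the Schwann cell lineage. Other cells of a tumor keep their floxed alleles. The sample names carry 3 animal numbers in the wildtype group and 2 in the loss group. Loss tumor 1 is labelled as from the right paraspinal nerve. Loss tumors 2 and 3 share a number, being the left and right sciatic nerve, and wildtype tumors 1 and 2, and 3 and 4, share numbers too. The p-values below count each tumor as a replicate, so they measure the spread between tumors, some of which may be from the same mouse.

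Cholesterol is built from acetyl-CoA through the mevalonate pathway, in which acetyl-CoA units are joined to HMG-CoA, reduced to mevalonate and assembled into isoprenoid units and then squalene. Squalene is oxidised and cyclised to lanosterol, which is trimmed to cholesterol. The transcription factor SREBP2, encoded by Srebf2, is held in the endoplasmic reticulum with its escort Scap by the Insig proteins when sterols are plentiful, and is otherwise carried to the Golgi, cleaved, and sent to the nucleus to switch on the genes of these enzymes. SREBP1, from Srebf1, acts mainly on fatty acid synthesis. Schwann cells make large amounts of cholesterol and fatty acids themselves when they build myelin.

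Values are log2 gene counts that the authors quantile-normalized, so every tumor has nearly the same distribution, centred near 8.46 and reaching 18.764 at most. The number of tumors limits the precision. The depth of each library is unknown, and so is its part in the precision. From 2686 to 3372 genes were listed at 0 in the wildtype tumors and from 1822 to 2113 in the loss tumors, and the part of that gap in the results was not tested. Eed lay between 10.17 and 10.33 in the wildtype tumors and between 8.76 and 8.96 in the loss tumors. Schwann markers were present in all 8 tumors, with a list mean of 6.39 to 10.29 in wildtype and 12.25 to 12.88 in loss tumors. Skeletal muscle markers stood at a list mean of 12.30 and 11.61 in wildtype tumors 1 and 2 and 8.94 in loss tumor 3, against 3.57 to 5.68 in the other 5 tumors, and results that change without those 3 are given both ways. Differences are PRC2 loss minus wildtype on the log2 scale, with the standard error (SE) and the Benjamini-Hochberg adjusted p of limma over 20807 genes. A gene is said to have risen or fallen where the adjusted p was below 0.05.

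The promoters of 4 members are shown here, because SREBP2 acts through a short element at its target genes, usually beside a CCAAT box that binds NF-Y. They are stretches of up to 180 bases from just before or near the RefSeq start (RefSeq, GRCm38.p6), written 5′ to 3′ along the gene, chosen after the values were seen: Hmgcs1, with the only match to the sterol element, Mvd and Srebf2, which fell, and Scap, which rose. Capitals mark TCACNCCAC, a form of the sterol regulatory element, and CCAAT, or its reverse complement ATTGG.
Hmgcs1 (chr13:119690171-119690350, plus strand): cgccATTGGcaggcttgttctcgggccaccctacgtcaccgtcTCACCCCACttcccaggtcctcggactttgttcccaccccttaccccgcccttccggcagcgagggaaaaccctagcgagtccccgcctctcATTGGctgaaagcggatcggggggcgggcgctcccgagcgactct
Mvd (chr8:122443423-122443602, minus strand): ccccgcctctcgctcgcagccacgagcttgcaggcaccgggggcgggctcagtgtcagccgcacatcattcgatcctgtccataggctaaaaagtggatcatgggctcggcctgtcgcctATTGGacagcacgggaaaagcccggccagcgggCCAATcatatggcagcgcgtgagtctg
Srebf2 (chr15:82147019-82147180, plus strand): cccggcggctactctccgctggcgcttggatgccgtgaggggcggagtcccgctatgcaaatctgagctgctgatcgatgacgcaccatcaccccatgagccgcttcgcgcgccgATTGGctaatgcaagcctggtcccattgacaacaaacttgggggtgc
Scap (chr9:110333108-110333287, plus strand): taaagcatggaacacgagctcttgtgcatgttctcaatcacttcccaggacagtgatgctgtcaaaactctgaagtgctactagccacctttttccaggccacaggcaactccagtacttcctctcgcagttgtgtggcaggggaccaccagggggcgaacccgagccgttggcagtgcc
The Hmgcs1 stretch holds 1 TCACNCCAC and 2 CCAAT matches that do not overlap. Mvd holds 2 CCAAT matches, Srebf2 holds 1, and Scap holds neither motif. Promoter windows of 300 bases were matched for 24 of the 30 members, with 32 windows in all. TCACNCCAC was found on either strand in 1 of them, and in 1.24% of all promoter windows of that length. CCAAT was found in 21 of the 32, or 65.6%, and in 37.4% of all windows. The GC box GGGCGG was found in 24 of the 32, or 75%, and in 35.7% of all windows. Of the 7 members past the threshold that have a window, 6 held CCAAT in it. Those were Mvd, Idi1, Cyp51, Msmo1 and Srebf2, which fell, and Tm7sf2, which rose. The printable stretches of Idi1, Cyp51 and Msmo1, not shown, held no CCAAT match, so the 4 shown give no contrast by direction. These are letter matches in a fixed window.

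Of the 30 genes, 9 fell and 3 rose in PRC2 loss tumors and 18 did not pass the test. Across all genes tested 19.6% fell and 16% rose. The 9 members that fell (30%) were more than this share of all genes, and the 3 that rose (10%) fewer. The 12 called in either direction (40%) stood near the background of 35.7%. Of the 30 members, 27 lay above the median of gene means. In a test limited to the 10472 genes above it, 24.3% fell and 16.5% rose, beside 7 and 3 of the 27 members. The 3 that rose there were Scap, Scd2 and Insig2 (limma adjusted p = 0.0489), and Insig2 missed in the test over all genes. The share of members that fell was then close to the background. Mvd and Idi1, which fell over all genes, and Tm7sf2, which rose, lay below that median. Later comparisons with all genes were not matched for level. The wildtype and loss tumors did not overlap for 13 members (43.3%), against 38.3% of all genes. Of these, 10 were lower in every loss tumor, as were 21.4% of all genes, and 3 were higher, as were 16.9%. In the test over all genes, the members that fell were 7 of the 18 sterol enzymes, Srebf2 and Stard4. The genes that rose were the sterol reductase Tm7sf2, Scap and the desaturase Scd2. Among the 18 sterol enzymes, 15 had a negative difference and the median difference was -0.49, beside -0.12 over all genes. Leaving out wildtype tumors 1 and 2, chosen after seeing the data, 8 members fell and 3 rose, where 21.5% of all genes fell and 16.6% rose. With loss tumor 3 left out as well, 6 fell and 1 rose, where 17.6% and 14.5% of all genes did. Without those 3 tumors Fdft1 (-0.77, adjusted p = 0.0629), Cyp51 (-1.39, adjusted p = 0.0528), Msmo1 (-0.51, adjusted p = 0.157), Srebf2 (-0.67, adjusted p = 0.0614), Tm7sf2 (0.66, adjusted p = 0.108) and Scap (0.58, adjusted p = 0.0764) missed the threshold, and Hsd17b7 passed it (-0.73, adjusted p = 0.0306). With tumors of the same animal number averaged, 6 fell (Mvd, Fdps, Sqle, Cyp51, Srebf2 and Stard4) and 1 rose (Scd2), where 10.2% of all genes moved in each direction.

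**Figure D1:**
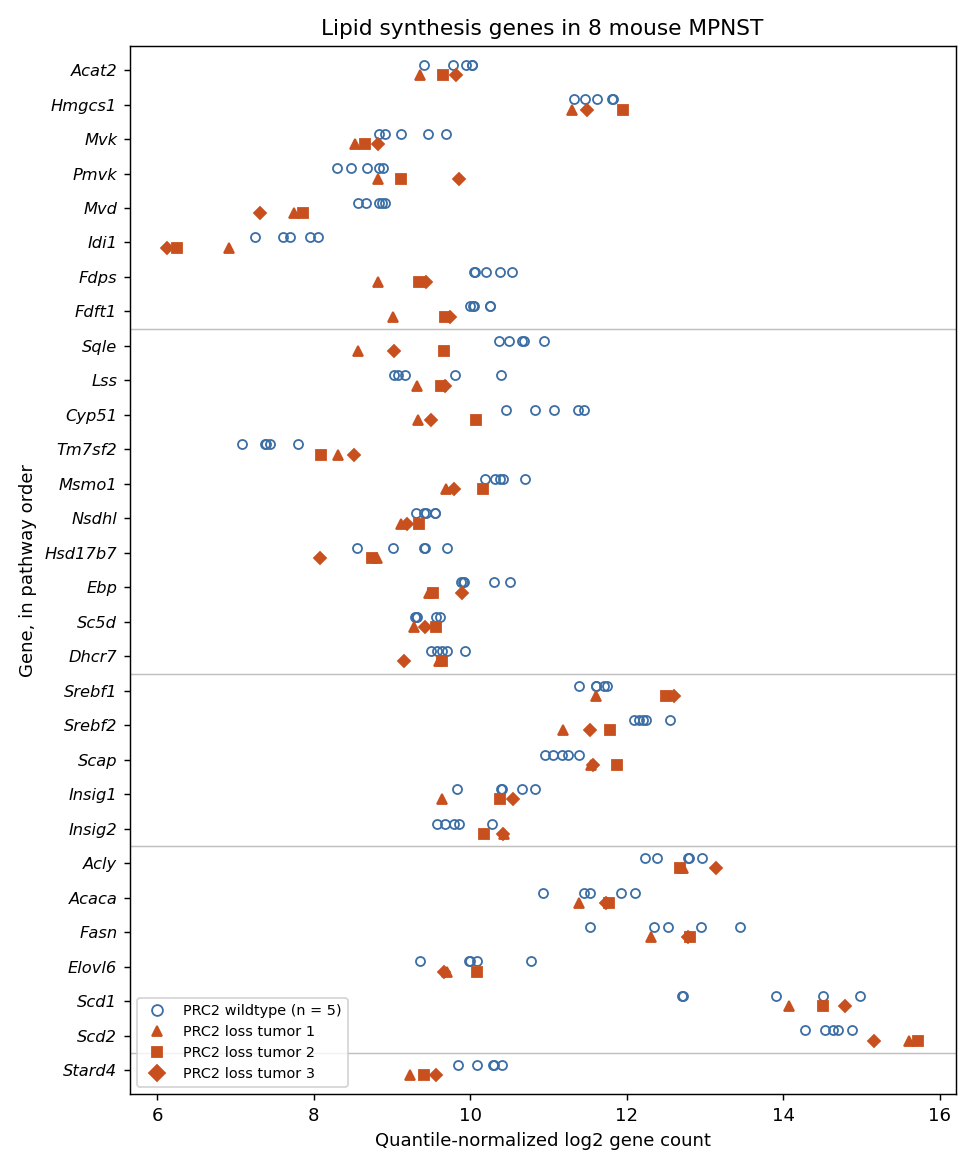
Quantile-normalized log2 value of each of the 30 genes in every tumor, with open circles for the 5 wildtype tumors, a symbol for each loss tumor, and genes ordered by role. Sqle lies between 8.57 and 9.66 in the loss tumors and between 10.37 and 10.95 in the wildtype tumors, while Scd1 overlaps between the groups.

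In bulk tumors, fewer cells of a type and less RNA per cell cannot be told apart, and this holds for each result below. The first steps of the mevalonate pathway did not pass the test. Acat2, a cytosolic thiolase that joins acetyl-CoA units, differed by -0.22 (adjusted p = 0.378). Hmgcs1, which makes HMG-CoA, stood at 11.82, 11.62, 11.81, 11.47 and 11.32 in wildtype tumors 1 to 5 and at 11.30, 11.95 and 11.49 in loss tumors 1 to 3. The lowest and the highest Hmgcs1 values were both loss tumors, and the difference of -0.03 had a 95% interval of -0.44 to 0.39 (limma adjusted p = 0.920). Mevalonate kinase, Mvk, stood at 9.12, 8.84, 9.47, 9.69 and 8.92 in wildtype and at 8.52, 8.66 and 8.82 in loss tumors. All 3 loss values were under the lowest wildtype value, but the difference of -0.54 missed the threshold (adjusted p = 0.0974). The next kinase, Pmvk, had a difference of the other sign, 0.63 (adjusted p = 0.0940), with loss tumor 3 at 9.85 and the other 7 tumors between 8.30 and 9.11.

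From mevalonate diphosphate onwards the 4 enzymes to squalene fell. They were 4 of the 8 enzymes up to squalene (50%, against 19.6% of all genes), and 0 of the 8 rose. Mvd, the decarboxylase that yields isopentenyl diphosphate, was at 8.67, 8.57, 8.87, 8.84 and 8.92 in wildtype tumors and at 7.75, 7.86 and 7.32 in loss tumors. The gap between the groups exceeded the spread within either, and the difference was -1.13 (SE 0.195, limma adjusted p = 0.00331), or 2.19-fold lower. Idi1, which isomerises that unit, was at 7.61, 7.26, 8.06, 7.70 and 7.96 in wildtype and at 6.92, 6.25 and 6.13 in loss tumors. Every loss tumor lay under every wildtype tumor, with loss tumor 3 lowest, and the difference was -1.28 (SE 0.306, adjusted p = 0.0130), or 2.43-fold lower. Fdps, which builds farnesyl diphosphate, was at 10.53, 10.05, 10.20, 10.37 and 10.06 in wildtype and at 8.82, 9.34 and 9.44 in loss tumors. It was lowest in loss tumor 1, and the difference was -1.05 (SE 0.186, adjusted p = 0.00378), or 2.07-fold lower. Fdft1, squalene synthase and the step that commits the pathway to sterols, was at 10.25, 9.998, 10.25, 10.05 and 10.04 in wildtype and at 9.02, 9.68 and 9.74 in loss tumors. Loss tumor 1 was again the lowest. The Fdft1 difference of -0.64 (SE 0.184, adjusted p = 0.0271), or 1.56-fold lower, missed the threshold without wildtype tumor 1 (-0.61, adjusted p = 0.0575), wildtype tumor 3 (-0.61, adjusted p = 0.0570) or loss tumor 1 (-0.41, adjusted p = 0.0550).

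Between squalene and cholesterol 3 of 10 enzymes fell (30%, against 19.6% of all genes) and 1 rose (10%, against 16%). The largest fall among the 30 members was that of Sqle, squalene epoxidase, a rate-limiting enzyme of sterol synthesis, encoded at chr15:59315077-59331192 (mm10). Sqle was at 10.66, 10.95, 10.69, 10.50 and 10.37 in the wildtype tumors and at 8.57, 9.66 and 9.03 in the loss tumors. All 3 loss tumors were below every wildtype tumor, loss tumor 1 the furthest, and the difference was -1.55 (SE 0.243, limma adjusted p = 0.00218), or 2.92-fold lower. Lanosterol synthase, Lss, acts next, and its 8 values ran from 9.03 to 10.39 in wildtype and from 9.32 to 9.68 in loss tumors. The Lss difference was 0.05, with a 95% interval of -0.69 to 0.78 (adjusted p = 0.921). Cyp51, the lanosterol demethylase, at chr5:4081145-4104746, was at 10.83, 11.07, 11.45, 11.38 and 10.46 in wildtype and at 9.33, 10.08 and 9.498 in loss tumors. Its groups did not overlap either, loss tumor 1 was again the lowest, and the difference was -1.40 (SE 0.264, adjusted p = 0.00479), or 2.64-fold lower.

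Tm7sf2, a sterol reductase that acts on the product of Cyp51, was the only one of the 18 sterol enzymes that rose. It was at 7.40, 7.09, 7.45, 7.80 and 7.38 in wildtype and at 8.31, 8.10 and 8.52 in loss tumors. Each loss tumor exceeded each wildtype tumor, and the difference was 0.89 (SE 0.233, adjusted p = 0.0192), or 1.85-fold higher. It missed the threshold without loss tumor 1 (0.88, adjusted p = 0.0520) or loss tumor 3 (0.78, adjusted p = 0.0668). Msmo1, which oxidises the methyl groups removed next, was at 10.31, 10.38, 10.70, 10.42 and 10.18 in wildtype and at 9.68, 10.17 and 9.79 in loss tumors. The groups touched without overlapping, and loss tumor 2 lay just under wildtype tumor 5. The difference was -0.52 (SE 0.161, adjusted p = 0.0361), or 1.43-fold lower, and it passed in only 6 of 20 alternative analyses. Among those that left out 1 tumor it passed without wildtype tumor 5 or loss tumor 2 and missed without any of the other 6 tumors, with adjusted p-values of 0.0562, 0.0517, 0.0652, 0.0664 without wildtype tumors 1 to 4 in turn and 0.119 and 0.107 without loss tumors 1 and 3.

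The later steps did not pass. Nsdhl and Hsd17b7, which complete the demethylation, differed by -0.23 (adjusted p = 0.193) and -0.68 (adjusted p = 0.106). Hsd17b7 passed without wildtype tumor 2 (-0.84, adjusted p = 0.0316). The isomerase Ebp differed by -0.47 (adjusted p = 0.0879). Sc5d, the desaturase after it, had the same mean of 9.42 in both groups, with a 95% interval of the difference from -0.33 to 0.33. Dhcr7, the last reductase of its branch, differed by -0.21 (adjusted p = 0.366). Stard4, a carrier that moves cholesterol between membranes and a known SREBP2 target, fell: its values were 10.09, 9.85, 10.29, 10.31 and 10.40 in wildtype and 9.23, 9.41 and 9.56 in loss tumors. No loss tumor reached the lowest wildtype value, and the difference was -0.79 (SE 0.161, adjusted p = 0.00671), or 1.73-fold lower.

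**Figure D2:**
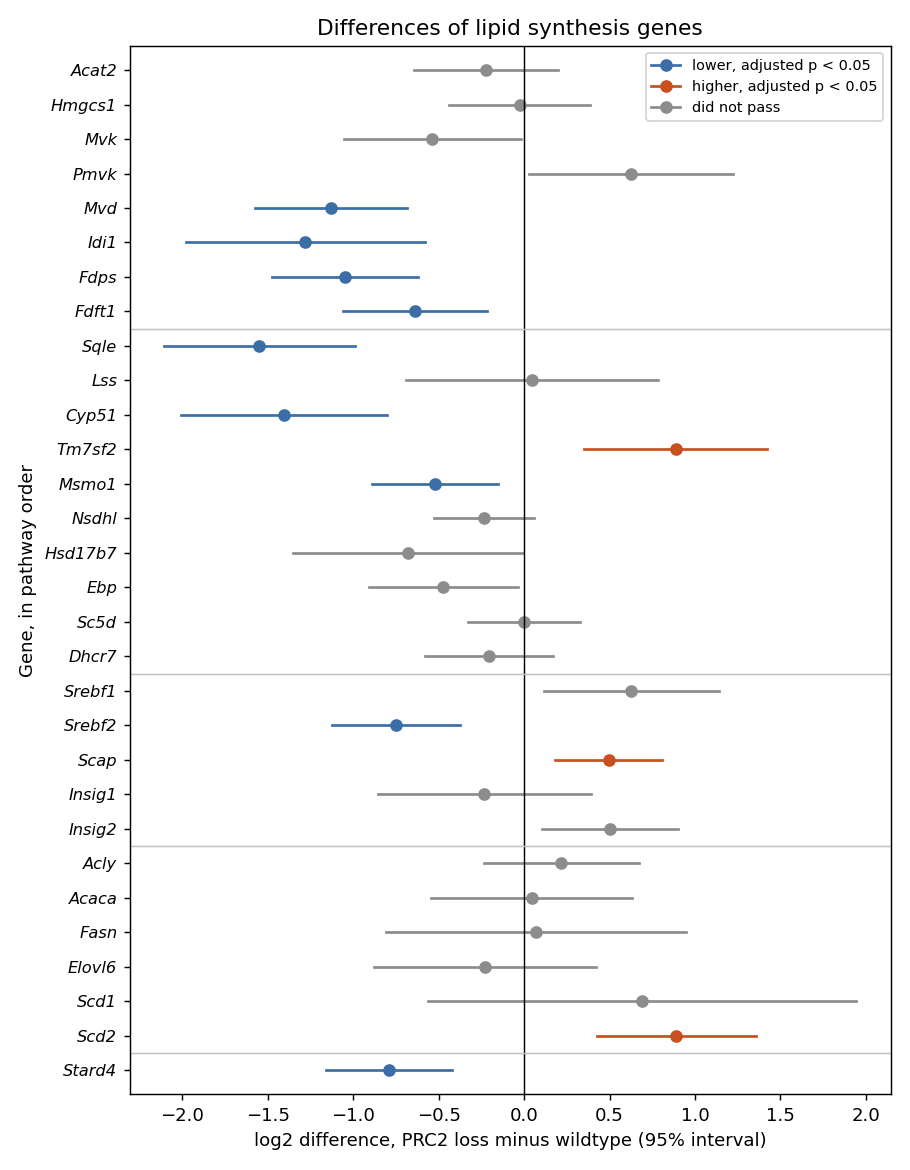
Log2 difference (PRC2 loss minus wildtype) of each of the 30 genes with its 95% interval from limma, ordered by role and marked by whether the gene rose, fell or did not pass the test. The intervals of Mvd, Idi1, Fdps, Fdft1, Sqle, Cyp51, Msmo1, Srebf2 and Stard4 lie below 0 and those of Tm7sf2, Scap and Scd2 above it; some genes that missed the adjusted threshold also have intervals clear of 0.

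Of the 5 regulators, Srebf2 fell and Scap rose, which is 20% each way, near the 19.6% and 16% of all genes. Srebf2, at chr15:82147181-82205379, was at 12.24, 12.55, 12.21, 12.15 and 12.09 in wildtype tumors and at 11.18, 11.78 and 11.53 in loss tumors. The loss tumors were all lower, loss tumor 1 most, and the difference was -0.75 (SE 0.163, limma adjusted p = 0.00879), or 1.68-fold lower. Srebf1 was at 11.61, 11.74, 11.60, 11.71 and 11.39 in wildtype and at 11.61, 12.50 and 12.61 in loss tumors. Loss tumors 2 and 3 were above every wildtype tumor and loss tumor 1 was among them. The Srebf1 difference of 0.63 missed the threshold (adjusted p = 0.0573) but passed without loss tumor 1 (0.94, adjusted p = 0.00383). A gene-level value does not separate the Srebf1a and Srebf1c transcripts.

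Scap, which escorts both SREBP proteins to the Golgi, was at 11.18, 11.26, 11.05, 11.39 and 10.95 in wildtype and at 11.55, 11.87 and 11.57 in loss tumors. The groups did not overlap, and the difference was 0.50 (SE 0.137, adjusted p = 0.0230), or 1.41-fold higher; it missed the threshold without loss tumor 2 (0.39, adjusted p = 0.0882). The retention proteins gave differences of opposite sign that did not pass. Insig1, itself a SREBP target, was at 10.39, 10.40, 10.66, 10.82 and 9.83 in wildtype and at 9.64, 10.38 and 10.55 in loss tumors, a difference of -0.23 (adjusted p = 0.548). Insig2, whose level is less tied to sterols, was at 9.79, 9.85, 9.68, 9.58 and 10.28 in wildtype and at 10.43, 10.17 and 10.42 in loss tumors. Wildtype tumor 5 reached into the range of the loss tumors for Insig2, and the difference of 0.50 (adjusted p = 0.0526) passed without that tumor (0.61, adjusted p = 0.0144).

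Pairs of related genes were compared within each tumor, where any shift shared by the whole tumor cancels. Srebf1 minus Srebf2 was -0.63, -0.81, -0.60, -0.44 and -0.69 in wildtype tumors and 0.43, 0.72 and 1.08 in loss tumors. The sign differed between the groups in every tumor, with means of -0.64 ± 0.13 (SD, n = 5) and 0.74 ± 0.32 (SD, n = 3). The zero point of this quantity also depends on gene length, so only its change between groups was compared. That change was 1.38, and its two-sided exact permutation p of 0.0179 was the smallest that 56 arrangements allow, giving 0.0536 after adjustment over the 3 pairs. Insig1 minus Insig2 changed by -0.74 (exact permutation p = 0.179, adjusted 0.268), by -0.99 without wildtype tumor 5 (unadjusted exact permutation p = 0.0286, the smallest possible with 7 tumors so divided) and by -0.42 without loss tumor 1 (exact permutation p = 0.476). Scd1 minus Scd2 changed by -0.20 (exact permutation p = 0.786), and turned to 0.10 without wildtype tumor 3 and to 0.05 without loss tumor 1.

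**Figure D3:**
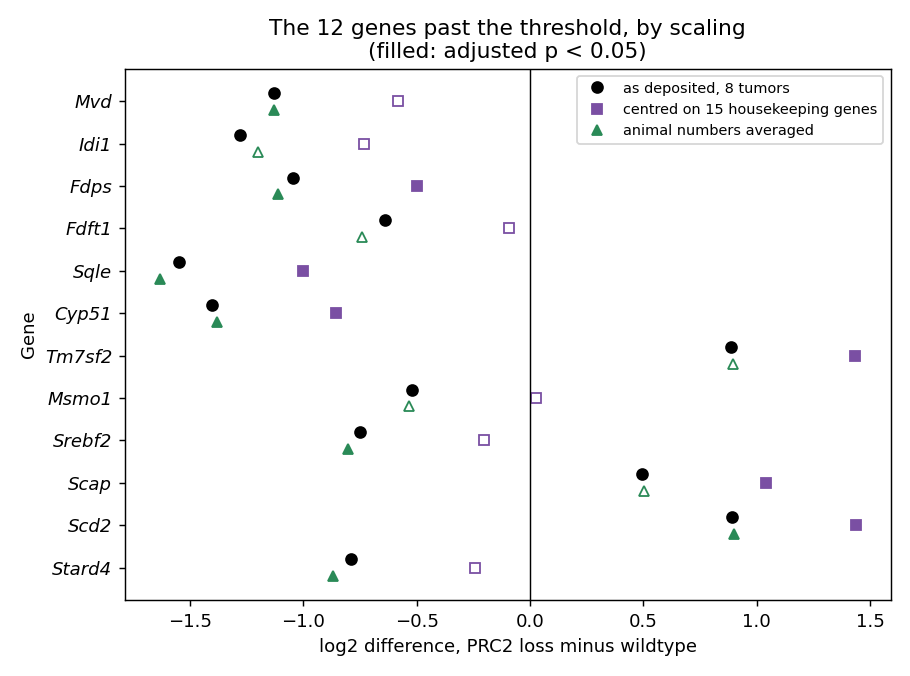
Log2 difference (PRC2 loss minus wildtype) of the 12 genes that passed the test, as deposited in 8 tumors, centred on 15 housekeeping genes, and with tumors of the same animal number averaged; filled symbols have an adjusted p below 0.05. Sqle, Cyp51 and Fdps are filled and below 0 in all 3 analyses, Scd2 is filled and above 0 in all 3, and Msmo1 moves from -0.52 to 0.03 with housekeeping centring.

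The scale matters to these directions. Of 15 housekeeping genes 9 fell in loss tumors, and centring each tumor on them moved the median of all genes from -0.12 to 0.42. The median of the 18 sterol enzymes moved with it, from -0.49 to 0.05. Centring shifts all genes of a tumor by the same amount. The distance of 0.37 below the median of all genes therefore cannot change with the scale, and it is no second test. On the housekeeping scale, where 8.14% of all genes fell and 34.5% rose, 3 members fell, namely Sqle (-1.001, adjusted p = 0.0104), Cyp51 (-0.86, adjusted p = 0.0213) and Fdps (-0.50, adjusted p = 0.0342). Mvd (-0.58), Idi1 (-0.73), Fdft1 (-0.09), Srebf2 (-0.20) and Stard4 (-0.24) kept a negative sign and missed the threshold, and Msmo1 turned to 0.03. On that scale 8 members rose, which were Pmvk, Tm7sf2, Sc5d, Srebf1, Scap, Insig2, Acly and Scd2. Of all calls, 55.1% were falls on the deposited scale and 19.1% on the housekeeping scale.

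Fatty acid synthesis enzymes gave 1 rise among 6 (16.7%, near the 16% of all genes) and no fall, where 19.6% of all genes fell. Acly, which supplies cytosolic acetyl-CoA, differed by 0.22 (adjusted p = 0.431), and Acaca, which carboxylates it to malonyl-CoA, by 0.04 (adjusted p = 0.905). Fasn, fatty acid synthase, was at 12.53, 11.53, 13.45, 12.95 and 12.35 in wildtype and at 12.31, 12.81 and 12.79 in loss tumors. The wildtype tumors alone spanned the loss tumors on both sides, and the difference of 0.07 had a 95% interval of -0.81 to 0.95 (limma adjusted p = 0.899). Elovl6, which lengthens palmitate, differed by -0.23 (adjusted p = 0.571). Of the 5 enzymes other than Scd2, 0 passed in limma and 0 had an unadjusted p below 0.05.

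The stearoyl-CoA desaturases, which put the first double bond into saturated fatty acids, lie close together on chromosome 19, Scd2 at chr19:44293674-44306864 and Scd1 at chr19:44394455-44407879 (mm10). Scd2, the form of neural tissue, was at 14.53, 14.28, 14.63, 14.88 and 14.71 in wildtype and at 15.60, 15.72 and 15.16 in loss tumors. The groups did not overlap, and Scd2 rose by 0.89 (SE 0.203, adjusted p = 0.0108), or 1.85-fold. Scd1, the form of liver, fat and sebaceous gland, was at 13.91, 12.71, 14.99, 14.51 and 12.72 in wildtype and at 14.07, 14.51 and 14.79 in loss tumors. Wildtype tumors 2 and 5 were more than 1 log2 unit under every other tumor, wildtype tumor 3 was the highest, and the difference of 0.69 had a 95% interval of -0.56 to 1.94 (adjusted p = 0.361). The coding sequences of the Scd genes are alike, the assignment of shared reads is not given in the sources used here, and each value is uncertain to that extent.

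Adipocyte markers also varied between tumors, and only partly alongside Scd1. The mean of 15 adipocyte markers was 10.70, 6.53, 10.57, 8.59 and 5.35 in wildtype and 5.77, 7.41 and 9.61 in loss tumors. Wildtype tumors 2 and 5, lowest for Scd1, were also low here, but loss tumor 1 had a mean of 5.77 with Scd1 at 14.07. Of the 15 markers 1 fell, Cebpa, which was also the only one with an unadjusted p below 0.05. The defining markers Adipoq and Plin1 were above 0 in all 8 tumors, and Cidea was at 0 in wildtype tumors 2 and 5 and in loss tumor 1. Lep was at 0 in wildtype tumor 2 and Adrb3 in wildtype tumor 5. None of 7 measured keratinocyte and sebocyte markers had an unadjusted p below 0.05, and their list mean was 2.39 to 4.35 in wildtype and 3.21 to 3.58 in loss tumors. Krt5 and Krt14 were at 0 in wildtype tumors 2 to 5 and at 7.37 and 6.13 in wildtype tumor 1, and Krt10, Mc5r and Far2 were above 0 in all 8 tumors. The part of these cells in the fatty acid values was not tested.

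**Figure D4:**
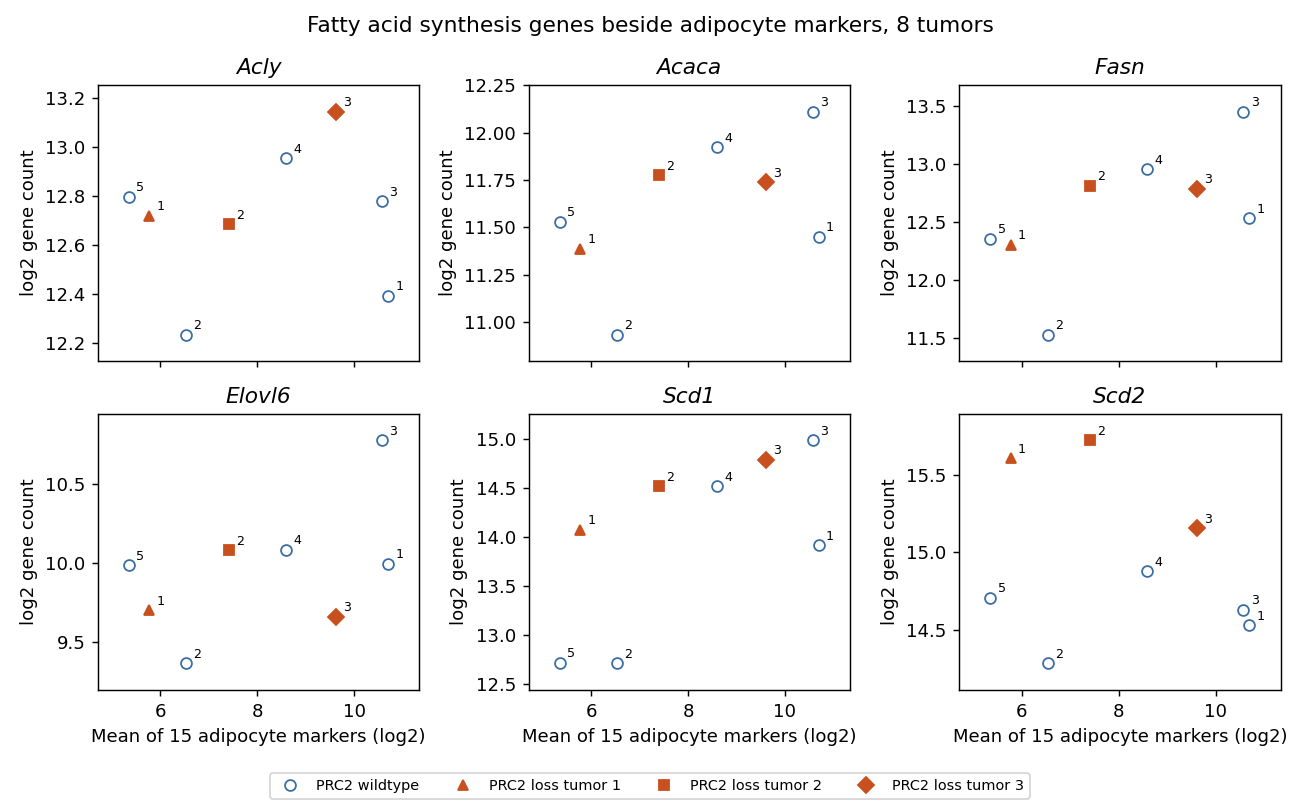
Log2 value of each of the 6 fatty acid synthesis genes (vertical axes) against the mean log2 value of 15 adipocyte markers (horizontal axes) in the 8 tumors, which are numbered by replicate within their group. Scd1 is lowest, at 12.71 and 12.72, in wildtype tumors 2 and 5, whose marker means are 6.53 and 5.35, and Scd2 is higher in the 3 loss tumors than in any wildtype tumor.

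Other cell type lists moved with the groups. All 15 myelin markers rose, with a list mean of 5.69 to 6.998 in wildtype and 11.67 to 12.13 in loss tumors, and 5 of 8 Schwann markers rose. All 10 proliferation genes fell, from a list mean of 10.19 to 11.71 in wildtype to 7.02 to 8.26 in loss tumors. Of 10 macrophage markers 7 fell and 1 rose, with list means of 12.11 to 12.90 in wildtype and 11.37 to 11.82 in loss tumors, and 8 of 10 endothelial markers rose, with list means of 9.82 to 10.52 in wildtype and 11.55 to 12.69 in loss tumors. The part of these cell types and of proliferation in the differences of the 12 members that fell or rose was not tested.

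The rest of the pathway was read from 4 lists with 104 measured genes, to be read against the 19.6% of all genes that fell and the 16% that rose. Of 16 other sterol and isoprenoid enzymes 4 fell and 3 rose, shares near those of all genes, and their median difference was -0.18. Pdss2, of ubiquinone synthesis, was at 7.49, 7.25, 7.90, 8.14 and 7.63 in wildtype and at 6.64, 6.22 and 6.25 in loss tumors. All loss tumors were lower than all wildtype tumors, and the Pdss2 difference was -1.31 (limma adjusted p = 0.00941), or 2.48-fold lower. Nus1, of dolichol synthesis, and Rce1, a protease that trims prenylated proteins, fell by 0.71 and 0.72. The heme- and sterol-associated membrane protein Pgrmc1 rose by 0.94 (adjusted p = 0.000889), as did Fntb and Fnta, the subunits of protein farnesyltransferase, by 0.72 and 0.39. The number of rises in this list was 1 without wildtype tumor 3 or without loss tumor 2, where 14.2% and 12.4% of all genes rose. With tumors of the same animal number averaged, Pgrmc1 passed (adjusted p = 0.0201), while Pdss2 (0.0783), Nus1 (0.0648), Rce1 (0.0712), Fntb (0.0802) and Fnta (0.128) missed by their adjusted p.

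Of 20 genes for SREBP processing and turnover 9 fell (45%, against 19.6% of all genes) and 0 rose in limma, 11 had an unadjusted p below 0.05 in either direction, as did 9578 of all 20807 genes, and the median difference was -0.46. Erlin1, part of an endoplasmic reticulum complex that restrains SREBP release, was at 11.40, 10.96, 11.46, 11.81 and 11.38 in wildtype and at 9.56, 9.61 and 9.26 in loss tumors. The groups were more than 1 log2 unit apart at their closest, and the difference was -1.92 (adjusted p = 0.000347), or 3.79-fold lower. Hsp90b1, an endoplasmic reticulum chaperone, and the ubiquitin ligase Syvn1 fell by 1.26 and 0.95. The 9 falls were 4 without loss tumor 3, where 14.4% of all genes fell. They were also 4 with animal numbers averaged, where 10.2% of all genes fell and Erlin1, Hsp90b1 and Syvn1 still passed. Those are genes of general protein handling in the endoplasmic reticulum as well as of SREBP turnover. The cleaving proteases Mbtps1 and Mbtps2, named after their values were seen, differed by 0.14 and -0.51 without passing.

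Of 28 genes for sterol uptake, storage and efflux 10 rose (35.7%, against 16% of all genes) and 3 fell (10.7%, against 19.6%), with a median difference of 0.36. Lipa, the lysosomal lipase, was at 12.45, 12.25, 12.35, 12.19 and 12.003 in wildtype and at 11.32, 11.54 and 11.52 in loss tumors. The groups did not overlap, and the Lipa difference was -0.79 (limma adjusted p = 0.00244), or 1.73-fold lower. Cyp7b1, an oxysterol hydroxylase, and Osbp, a carrier of sterols between membranes, fell by 0.88 and 0.58. The 3 falls were 1 without loss tumor 1, where 14.6% of all genes fell. Osbp missed the threshold with animal numbers averaged (-0.67, adjusted p = 0.0693). Apod, a lipocalin carrier, rose by 5.30 (adjusted p = 0.00118), a value limited by the table, since Apod was at its highest entry of 18.764 in loss tumors 2 and 3. Gramd1b and Gramd1c, which move cholesterol from the plasma membrane to the endoplasmic reticulum, rose by 2.08 and 1.52.

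**Figure D5:**
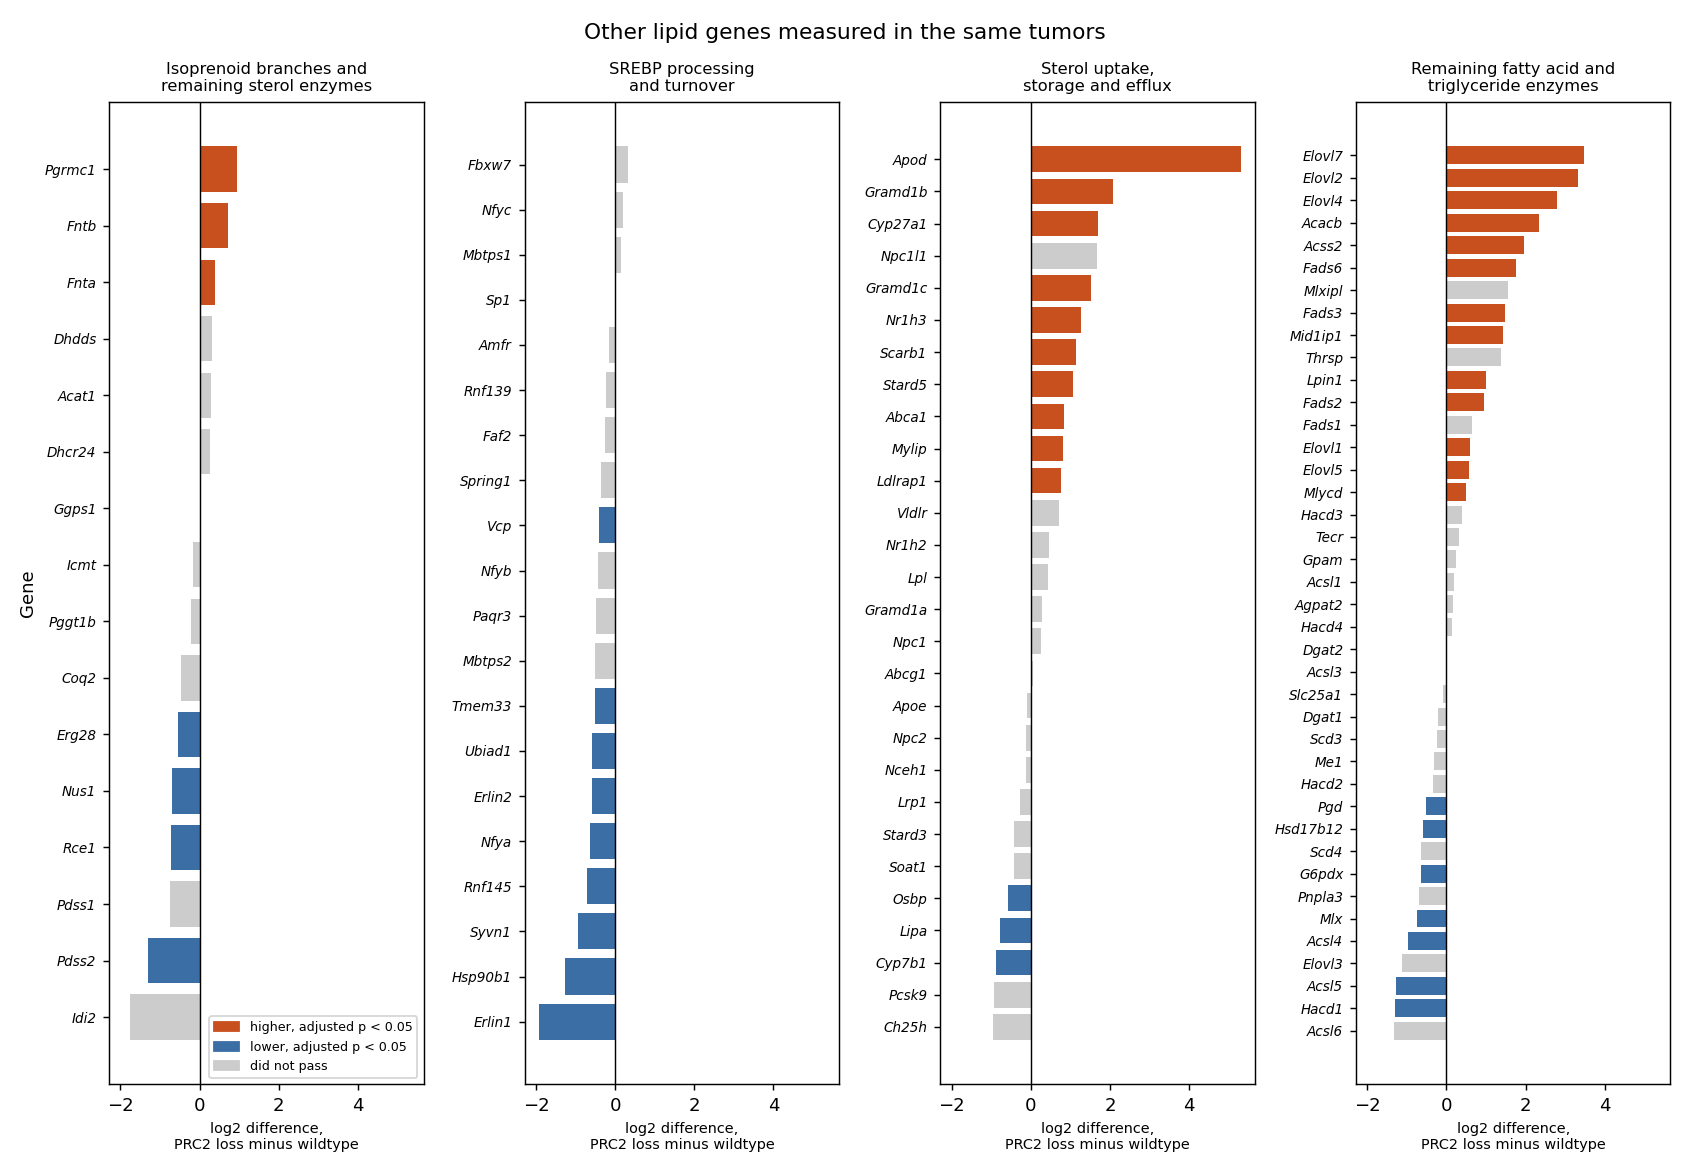
Log2 difference (PRC2 loss minus wildtype) of the 104 further pathway genes as bars in 4 panels, 1 for each list, ordered by size and coloured by whether the gene rose, fell or did not pass. The panel for SREBP processing and turnover has 9 falls and 0 rises, Erlin1 has its largest fall, and Apod has the largest rise of the 4 panels.

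Of 40 further fatty acid and triglyceride genes 13 rose (32.5%, against 16% of all genes) and 7 fell (17.5%, near the 19.6% of all genes), and the median difference was 0.18. Acss2, which makes acetyl-CoA from acetate, was at 8.43, 7.78, 8.50, 8.40 and 7.30 in wildtype and at 9.89, 9.96 and 10.31 in loss tumors. The groups lay more than 1 log2 unit apart, and Acss2 rose by 1.97 (adjusted p = 0.00208). Elovl7 and Elovl2, elongases of long-chain fatty acids, rose by 3.47 (adjusted p = 0.00039) and 3.34, Elovl2 from levels of 2.05 to 3.51 in wildtype. Acsl5, which activates fatty acids, G6pdx, a source of NADPH, and the elongation enzyme Hsd17b12 fell by 1.28, 0.65 and 0.58. The 7 falls were 4 without loss tumor 3, where 14.4% of all genes fell. With animal numbers averaged 7 genes of this list rose and 3 fell, among them the 6 named here, where 10.2% of all genes moved in each direction. On the housekeeping scale 8.14% of all genes fell and 34.5% rose. There 3 of the 104 genes fell, Erlin1, Hsp90b1 and Acsl5, a smaller share than of all genes, and 46 rose, a larger one.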

How the data were processed

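Per the labels' protocols, poly-A TruSeq libraries were made from Trizol-extracted RNA of each tumor. Trim Galore, STAR 2.6, Partek 7.0 and mm10 are named in the submitters' processing notes. How reads were counted, on which annotation, with what strand setting, log offset and filters is not given in the sources used here. Log2 values, quantile-normalized by the authors, were deposited for 20943 symbols in 8 tumors and were used as they stand. Quantile normalization forces equal distributions, so a shift shared by most genes is not visible in them.

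Tumors were grouped by their titles. A linear model with a trended empirical Bayes prior (limma 3.58.1, R 4.3.3) compared 3 loss with 5 wildtype tumors over the 20807 genes that were not constant, two-sided, with Benjamini-Hochberg adjustment and a threshold of 0.05. It was tested on simulated data. Within-tumor differences of 3 pairs had exact permutation tests. The 20 alternatives covered low values, added constants, priors, weights, housekeeping centring, animal numbers, replicate numbers and tumors left out. The members and lists were chosen with earlier results of these data known. All 30 members are named, with up to 3 rises and 3 falls of each further list by smallest p. Some genes of the pathway are not reported here, and the further lists and their counts leave them out. Gene positions are from GENCODE on mm10. Promoters are RefSeq windows of 250 bases before to 50 after the start, from which exon-free stretches before the start are printed; members without an entry were Fdps, Fdft1, Sqle, Scd1, Scd2 and Stard4.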

Additional observations from a re-analysis of the deposited data

How the results depend on the processing

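Sqle fell in all 20 alternatives, Fdps, Cyp51 and the rise of Scd2 held in 19 of 20, and Msmo1 in 6. Centring on housekeeping genes left 3 members lower and 8 higher, 3 sterol enzymes lower, 3 further pathway genes lower and 46 higher, and 1694 of all genes lower and 7180 higher. It turned Acat2 (0.32), Hmgcs1 (0.52), Mvk (0.0097), Msmo1 (0.0285), Nsdhl (0.31), Ebp (0.0757), Sc5d (0.55), Dhcr7 (0.34), Insig1 (0.32) and Elovl6 (0.32) positive. Restricted to the 10472 genes above the median mean, 2545 genes were lower (24.3%) and 1731 higher (16.5%), beside 19.6% and 16% of all genes tested. Array weights turned Hmgcs1 (0.14) and Sc5d (0.0896). Averaging animal numbers gave 1 member higher, 4 sterol enzymes lower, 9 further genes lower and 15 higher, 2113 of all genes in each direction, Acaca at -0.0072, and 1.31 for Srebf1 minus Srebf2 (exact permutation p = 0.1, the smallest possible).

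Replicate numbers are shared by the groups but do not pair mice: deviations of same-numbered tumors correlated at -0.16, 0.09 and -0.05, and only loss tumor 2 correlated best with its own number. With the replicate block 2 members (Sqle and Cyp51) were lower and 0 higher in limma, 5 being higher at an unadjusted p below 0.05, 2 sterol enzymes lower, 3 further genes lower and 4 higher, 774 of all genes lower and 1129 higher, and Srebf1 minus Srebf2 was 1.42 (exact permutation p = 0.25, the smallest possible); fewer residual degrees of freedom remain in that model.

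Without wildtype tumors 1 and 2, an alternative chosen after seeing the data, Hmgcs1 (0.0476), Lss (-0.20), Sc5d (0.11), Acaca (-0.22) and Fasn (-0.285) changed sign. Without loss tumor 3 as well, 1 member was higher and Hmgcs1 (0.0941), Lss (-0.27), Sc5d (0.11), Dhcr7 (0.0479), Acly (-0.14), Acaca (-0.27) and Fasn (-0.36) did so. None of these was called. Over analyses leaving out 1 tumor, ranges that crossed 0 were -0.21 to 0.11 for Hmgcs1, -0.0701 to 0.27 for Lss, -0.0707 to 0.0704 for Sc5d, -0.41 to 0.0422 for Insig1, -0.12 to 0.17 for Acaca, -0.19 to 0.29 for Fasn and -0.53 to 0.10 for Scd1 minus Scd2. Insig1 minus Insig2 ran from -0.99 to -0.42, and further pathway genes called lower from 13 to 25. The causes of these changes were not tested, and library depth is unknown, so its limits cannot be given. Pair differences were not recomputed under weights, priors or centring, which cannot change them or do not apply. They were also not recomputed with wildtype tumors 1 and 2 left out together, with or without loss tumor 3.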
